A study of Mus musculus with 2 samples.

Results

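The globin switching regulators described here are 10 genes linked, by their products or by their place in the genome, to the repression of embryonic and fetal globin genes. They were chosen by symbol, matched through the mouse GENCODE annotation to 10 of the 43346 Ensembl genes in each deposited gene table. The rule uses symbols and no measured value, though the set was proposed with earlier results of these data known. The genes are Bcl11a, Zbtb7a, Sox6, Myb, Hbs1l, Lin28b, Mbd2, Chd4, Mta2 and Gatad2a. Their RNA was measured by total RNA sequencing after depletion of ribosomal RNA in 1 group of 2 libraries, called replicates 1 and 2. Both came from primary erythroblasts, the nucleated precursors of red cells, of adult male C57BL/6J mice aged 5 to 6 weeks, with no treatment or transgene named. The cell isolation document linked in the labels is for bone marrow, and no sorting marker is named in the sources used here. The input was 100 ng of RNA per library, and the biosamples share 1 donor record, so the spread between the libraries may be partly technical. With a single group there is no contrast of conditions and no p-value is given.

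Bcl11a, Zbtb7a and Sox6 encode DNA-binding proteins. In human red cell precursors BCL11A and ZBTB7A bind the beta globin locus and silence the fetal gamma globin genes, and in mice Bcl11a and Sox6 silence the embryonic genes Hbb-y and Hbb-bh1. Mbd2, Chd4, Mta2 and Gatad2a encode subunits of NuRD, a corepressor that joins nucleosome remodelling by a helicase with histone deacetylation and that both BCL11A and ZBTB7A recruit. Myb encodes a transcription factor of proliferating progenitors, and human variants between HBS1L and MYB are among the best known modifiers of fetal hemoglobin. Hbs1l itself encodes a factor for the rescue of stalled ribosomes. Lin28b encodes an RNA-binding protein of fetal blood cells that blocks let-7 microRNAs and holds back BCL11A.

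Replicate 1 held 37312634 expected counts in genes and replicate 2 held 22464727, so that a count of 0, which allows up to 3 counts, leaves room for up to 0.0804 and 0.134 CPM (counts per library scaled to 1000000). Counts differed far beyond sampling noise over 12757 genes (chi-square 311 per degree of freedom), so the libraries are separate. Levels are given as coding-scaled TPM, the deposited TPM (a transcript level corrected for length) rescaled so that 21461 nuclear protein-coding genes sum to 1000000, because those genes held only 11.3% and 6.89% of deposited TPM. All 10 erythroblast markers were detected, that is, both libraries listed a TPM of 1 or more. All 10 neutrophil precursor markers were detected too, with a summed level of 20565 in replicate 1 and 20072 in replicate 2. Of 7 monocyte and macrophage markers 6 were detected, with a summed level of 648 and 408. Of 6 megakaryocyte markers 2 were detected, with a summed level of 120 and 144. By this limit 20.3% of nuclear protein-coding genes were detected. The part of these other cells in the values below was not tested. In bulk RNA, fewer cells of a type and less RNA per cell cannot be told apart.

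Sequences that mark the transcript choices described below come first. Sox6 (chromosome 7, 115470872 to 116038796, minus strand) had 3 transcripts with appreciable shares, each with its own annotated start. Each is named here by the place of its start (first ENSMUST00000166877, middle ENSMUST00000166207, last ENSMUST00000169129). Their last exons also differ, with 5878 bases for the first, 564 for the middle and 2766 for the last. A transcript share is therefore not a measure of the use of its start. The 250 bases upstream of the RefSeq start nearest to each are shown. They are read 5′ to 3′ on the minus strand from GRCm38.p6, at chr7:115846141-115846390 for the middle start, chr7:116038745-116038994 for the first and chr7:115824711-115824960 for the last. Capitals mark GATA motifs, searched on both strands as GATAA or GATAG after an A or a T.
Sox6 middle start: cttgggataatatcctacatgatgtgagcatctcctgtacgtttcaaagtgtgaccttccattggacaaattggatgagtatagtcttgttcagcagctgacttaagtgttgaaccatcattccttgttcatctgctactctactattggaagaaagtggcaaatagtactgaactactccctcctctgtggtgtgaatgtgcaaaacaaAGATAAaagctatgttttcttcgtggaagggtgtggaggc
Sox6 first start: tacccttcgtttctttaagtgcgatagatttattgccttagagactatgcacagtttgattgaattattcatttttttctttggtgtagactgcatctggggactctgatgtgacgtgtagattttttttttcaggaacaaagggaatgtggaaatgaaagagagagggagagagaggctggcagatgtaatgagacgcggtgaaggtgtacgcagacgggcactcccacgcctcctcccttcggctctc
Sox6 last start: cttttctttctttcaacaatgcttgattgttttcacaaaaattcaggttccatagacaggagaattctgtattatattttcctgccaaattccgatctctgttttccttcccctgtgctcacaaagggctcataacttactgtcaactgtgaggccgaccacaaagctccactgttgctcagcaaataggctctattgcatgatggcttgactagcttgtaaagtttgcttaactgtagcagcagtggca
The window of the middle start held 1 match, which begins 40 bases before the RefSeq start, and that start lies 35 bases upstream of the annotated 5′ end of the middle-start transcript. The other windows shown held 0 matches. Of 32851 RefSeq windows of the same length, 26.5% held at least 1, so a match is common and is not in itself a binding site.

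The middle-start transcript also carries a coding exon of 123 bases (chr7:115579016-115579138, minus strand) that is in neither of the others. It is given because it separates the products that most Sox6 RNA was assigned to.
Sox6 middle-start exon: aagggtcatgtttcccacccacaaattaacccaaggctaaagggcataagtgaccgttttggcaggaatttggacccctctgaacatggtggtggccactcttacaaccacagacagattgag

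Hbs1l and Myb each had a pair of transcripts that part at 1 exon junction. In the lines below, lower case is the last 30 bases of the shared exon and capitals are the first 30 bases of the exon that follows, all coding, from GENCODE M21 transcripts on GRCm38. Hbs1l is on the plus strand of chromosome 10 and Myb on the minus strand.
Hbs1l-203 exon junction: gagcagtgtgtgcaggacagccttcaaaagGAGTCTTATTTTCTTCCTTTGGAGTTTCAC
Hbs1l-201 exon junction: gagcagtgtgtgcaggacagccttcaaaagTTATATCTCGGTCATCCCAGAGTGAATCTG
Myb-203 exon junction: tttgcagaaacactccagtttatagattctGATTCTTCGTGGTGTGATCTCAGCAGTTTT
Myb-201 exon junction: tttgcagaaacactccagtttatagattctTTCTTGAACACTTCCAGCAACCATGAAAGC
Hbs1l-203 ends in its own exon 5 of 2111 bases (chr10:21309099-21311209), while Hbs1l-201 goes on to an exon 5 of 100 bases and to 18 exons in all. Myb-203 inserts an exon of 357 bases (chr10:21144969-21145325) that Myb-201 skips.

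The last sequence is the window upstream of Chd4 (chr6:125095731-125095980, plus strand, RefSeq start at 125095981). ZNF410, a zinc finger protein whose mouse gene is Zfp410, is known in human red cell precursors for activating CHD4 through clusters of its motif there. Capitals mark CCCATAA, a part of that motif, searched on both strands and found here as TTATGGG.
Chd4 upstream window: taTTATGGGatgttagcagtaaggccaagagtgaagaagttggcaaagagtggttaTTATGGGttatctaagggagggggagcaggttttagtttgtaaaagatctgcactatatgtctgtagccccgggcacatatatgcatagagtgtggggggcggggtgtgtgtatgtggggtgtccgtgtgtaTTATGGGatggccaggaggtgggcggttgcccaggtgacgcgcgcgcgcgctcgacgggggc
This window held 3 matches, which begin 248, 194 and 62 bases before the start. Of the 32851 windows 2.21% held at least 1 match, 15 held at least 2 and 1, that of Chd4, held 3. The window before a second Chd4 start, which overlaps this one, held 2. These letters were looked up in Chd4 first and counted over all windows afterwards, and no binding was measured.

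Of the 10 regulators, 7 were detected, against 20.3% of all nuclear protein-coding genes. Gatad2a, Bcl11a and Lin28b were not. With the limit set at 1 coding-scaled TPM instead, 9 passed, against 43.9% of those genes, and only Lin28b did not. The median level over the 10 genes in coding-scaled TPM was 48.3 in replicate 1 and 55.5 in replicate 2, against 7.02 and 6.96 over the 12895 protein-coding genes with any TPM in either library. Their median percentile among those genes was 85.5 and 86.6. Among the 9 genes present Sox6 stood far above the others and Bcl11a was lowest.

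**Figure D1:**
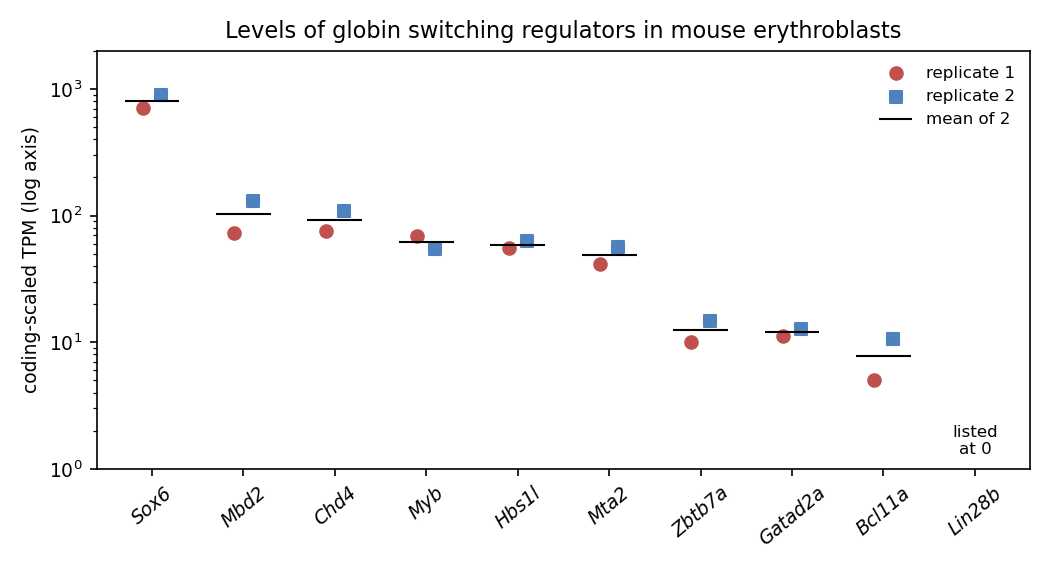
Level of each regulator in coding-scaled TPM on a log axis, ordered by mean, with circles for replicate 1, squares for replicate 2 and a line for the mean of both. Sox6 lies at 708 and 888, Bcl11a at 5.06 and 10.6, and Lin28b is listed at 0.

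Sox6, an SRY-related factor that represses Hbb-y in mice, had 41040 and 25662 counts in replicates 1 and 2. Its level was 708 and 888 coding-scaled TPM, a mean of 798 ± 127 (SD, n = 2), and a percentile of 98.7 and 99.0. Both libraries put it above every other regulator, with no overlap of ranges. Its paralogues Sox5 and Sox13, of the same SoxD family, stood at 0.412 ± 0.172 and 1.56 ± 1.08 coding-scaled TPM (SD, n = 2), so nearly all SoxD RNA came from Sox6.

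Zbtb7a, the gene of the repressor LRF (chromosome 10, 81135220 to 81152995), had 768 and 556 counts. In coding-scaled TPM it stood at 10.04 in replicate 1 and 14.8 in replicate 2. That is a mean of 12.4 ± 3.36 (SD, n = 2). It overlapped the range of its paralogue Zbtb7b, at 16.0 and 5.80, while Zbtb7c had 0 counts in both libraries.

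Bcl11a (chromosome 11, 24078056 to 24174123) had 220 and 227 counts. Its level was 5.06 and 10.6 coding-scaled TPM, a mean of 7.83 ± 3.91 (SD, n = 2), at percentiles 43.5 and 58.4. This is the lowest of the 9 regulators present and near the middle of the expressed protein-coding genes. Bcl11a is also known from B cells and plasmacytoid dendritic cells. Of 8 B cell markers 0 were detected, against 20.3% of nuclear protein-coding genes, by a limit that Bcl11a did not pass either. At 1 coding-scaled TPM, which Bcl11a passed, 1 of the 8 passed, against 43.9%. The summed level of the 8 was 10.2 and 3.77 coding-scaled TPM, of which Cd79b held 7.55 and 3.34. Pax5 and Igll1 had 0 counts in both libraries. Of 7 plasmacytoid dendritic cell markers only Irf8 was detected, at 26.0 and 23.5, against the same 20.3%. At 1 coding-scaled TPM 4 of the 7 passed, against 43.9%. The summed level of the 7 was 40.3 and 38.6. Bst2 stood at 6.66 and 6.82 and Tcf4 at 3.64 and 5.08, while Siglech had 0 counts in both libraries. The part of either cell type in the Bcl11a level was not tested. The paralogue Bcl11b, a T cell factor, had 0 and 6 counts.

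Among the NuRD members, Mbd2, the subunit that binds methylated DNA (chromosome 18, 70568189 to 70626131), had 1839 and 1195 counts. Replicate 1 had 73.2 and replicate 2 had 131 coding-scaled TPM. Chd4, the helicase (chromosome 6, 125095981 to 125130591), had 4519 and 2899 counts and 75.4 and 109 coding-scaled TPM. These levels overlapped, with means of 102 ± 41.1 for Mbd2 and 92.1 ± 23.6 for Chd4 (SD, n = 2). Mta2, a scaffold subunit (chromosome 19, 8941875 to 8952303), had 1388 and 741 counts. Its level was 41.3 and 56.9 coding-scaled TPM, a mean of 49.1 ± 11.0 (SD, n = 2). Gatad2a, which links the MBD subunit to CHD4 (chromosome 8, 69907076 to 69996384), had 863 and 488 counts. It stood lowest of the 4, at 11.3 and 12.6 coding-scaled TPM in the libraries, both below the lower value of Mta2.

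Each NuRD member has paralogues that can take its place in the complex, and their levels were set side by side. Chd4 stood above Chd3 (17.8 and 19.6 coding-scaled TPM) in both libraries, and Chd5, a helicase best known from neurons and testis, had 10 and 0 counts. Mbd2 stood above Mbd3 (11.2 and 22.5), which binds methylated DNA poorly, and above Mbd1 (7.46 and 13.2) and Mbd4 (12.1 and 10.4), which are not NuRD subunits. Mta2 overlapped Mta3 (71.2 and 55.0) and stood above Mta1 (14.3 and 8.99). Gatad2a stood below its paralogue Gatad2b (31.2 and 38.3) in both libraries. Their counts were close, at 863 and 488 for Gatad2a and 814 and 520 for Gatad2b. The order thus rests on the lengths used for TPM, 5202 bases for Gatad2a and 1906 for Gatad2b in replicate 1. Of the 11 NuRD subunits outside the 10 regulators 9 were detected, all but Chd5 and Mta1, against 20.3% of nuclear protein-coding genes. Their median was 30.8 ± 0.619 coding-scaled TPM (SD of the library medians, n = 2). Rbbp4, a histone-binding subunit, had the highest mean at 65.0 and 128, though Mta3 was above it in replicate 1, and the deacetylase genes Hdac1 and Hdac2 stood at 37.9 ± 10.7 and 26.2 ± 3.64 (SD, n = 2).

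**Figure D2:**
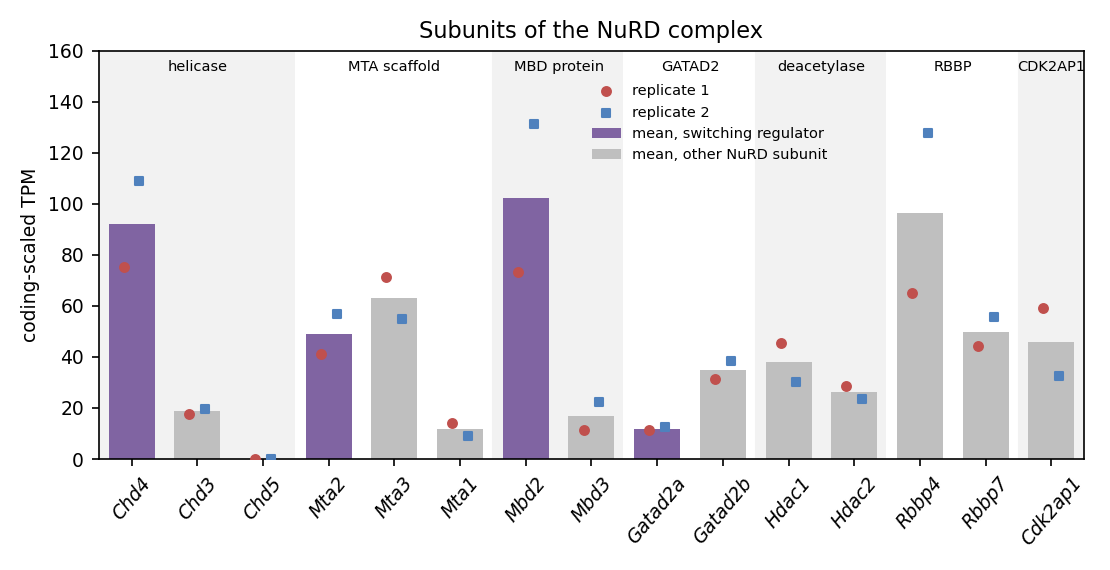
Coding-scaled TPM of NuRD subunits grouped by their place in the complex, with bars for the mean of both libraries, circles for replicate 1 and squares for replicate 2, and purple bars for the switching regulators. Chd4 and Mbd2 stand above their paralogues in both libraries, Mta2 overlaps Mta3, and Gatad2a stands below Gatad2b. The order of Gatad2a and Gatad2b rests on the lengths used for TPM, as their counts were close.

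Myb (chromosome 10, 21124935 to 21160984) and Hbs1l (chromosome 10, 21295979 to 21368898) lie head to head, 134994 bases apart. Myb had 3163 and 1315 counts and 68.3 and 54.2 coding-scaled TPM, a mean of 61.3 ± 9.96 (SD, n = 2). Hbs1l had 2138 and 1265 counts and 55.3 and 62.8 coding-scaled TPM, a mean of 59.0 ± 5.33 (SD, n = 2). Their ranges overlapped, so the neighbours had levels that did not differ beyond the spread. Of the genes that flank this pair, Ahi1 stood at 6.57 ± 0.753 coding-scaled TPM (SD, n = 2) and Aldh8a1 had 0 counts. Among Myb paralogues, Mybl2, a factor of dividing cells, stood at 37.5 and 70.5 and overlapped Myb, and Mybl1 at 3.82 and 9.14. Myb is also a progenitor gene. Of 7 stem and progenitor markers only Kit was detected, against 20.3% of nuclear protein-coding genes. With the limit at 1 coding-scaled TPM 6 of the 7 passed, against 43.9%. The summed level of the 7 was 36.7 and 39.2 coding-scaled TPM.

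Hbs1l works with Pelo to split stalled ribosomes. Among 7 partner genes of ribosome rescue and termination 4 were detected, against 20.3% of nuclear protein-coding genes. Pelo itself stood at 8.09 and 5.66 coding-scaled TPM, below Hbs1l in both libraries. Gtpbp2, a GTPase that acts with Pelo in mice, was highest at 753 and 992, and Zfp598, the sensor of collided ribosomes, was lowest at 4.24 ± 0.0418 (SD, n = 2). The list median was 26.6 ± 5.39. Of the related termination factors, Gspt1 stood at 30.4 and 22.8 and Gspt2 had 0 and 1 counts. Of 18 paralogues of the regulators in all, 6 were detected, against the same 20.3%. Their list median was 9.66 ± 0.847 coding-scaled TPM (SD, n = 2).

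Lin28b (chromosome 10, 45376620 to 45486395) had 0 and 1 counts and was listed at a TPM of 0 in both libraries. At its length, 3 counts correspond to 0.0379 coding-scaled TPM in replicate 1, and in replicate 2 to 0.0737, so no level above these was seen. Its paralogue Lin28a, which blocks let-7 in stem cells, had 274 and 125 counts and 9.33 and 6.67 coding-scaled TPM. Of 11 genes of the LIN28 and let-7 axis 3 were detected, namely Tut4, Tut7 and Dgcr8, against 20.3% of nuclear protein-coding genes. The list median was 4.73 ± 0.904 coding-scaled TPM (SD, n = 2). Tut7, a uridylyl transferase that acts on let-7 precursors, stood out at 436 and 545. The oncofetal mRNA-binding genes Igf2bp1 and Igf2bp3 had 0 counts in both libraries, Igf2bp2 had 5 and 10, and Hmga2, a let-7 target, had 0 and 4.

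Of 10 genes known to act upstream of the regulators 6 were detected, against 20.3% of nuclear protein-coding genes. The list median was 47.3 ± 2.82 coding-scaled TPM (SD, n = 2). Klf1, which activates BCL11A and ZBTB7A in human cells, stood at 123 and 88.9. Eif2ak1, the heme-regulated kinase HRI that acts through ATF4 on BCL11A in human cells, was highest at 873 and 785, and Atf4 stood at 149 and 150.3. Zfp410, the Chd4 activator named above, stood at 11.5 and 7.83, with 440 and 155 counts. Hic2, a repressor of BCL11A in fetal human cells, was lowest with 56 and 4 counts. Of 12 other corepressors and chromatin enzymes of globin silencing 8 were detected, against the same 20.3%, and the list median was 24.0 ± 2.32. Trim28 was highest at 155 and 214, Nr2c1, the gene of the orphan receptor TR2, lowest at 2.93 and 1.16, and Kdm1a, the histone demethylase LSD1, stood at 36.8 and 49.3.

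Of 8 globin targets 4 were detected, all of them adult globin genes, against 20.3% of nuclear protein-coding genes. Hba-a2 was highest, at 283079 and 235843 coding-scaled TPM, and Hba-a1 stood at 26051 and 15611. Hbb-bh2 had 6 and 0 counts. No library held a count of the embryonic genes Hbb-y (0) or Hbb-bh1 (0), and for Hba-x, embryonic as well, 7 and 12 were listed. Hbb-bt stood at 39663 and 48425 coding-scaled TPM and Hbb-bs at 39090 and 28462, though near-identical sequence makes the split between this pair an estimate.

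The order of the regulators by mean level was Sox6, Mbd2, Chd4, Myb, Hbs1l, Mta2, Zbtb7a, Gatad2a, Bcl11a and Lin28b. Of its 9 neighbouring pairs 5 had ranges that did not overlap, namely Sox6 over Mbd2, Chd4 over Myb, Mta2 over Zbtb7a, Gatad2a over Bcl11a and Bcl11a over Lin28b. The other 4 pairs overlapped, so their order is not settled by these libraries. These ranges are of gene TPM, which includes transcripts not annotated as protein coding. Protein-coding transcripts held 82.1% and 72.9% of Chd4 TPM, and 100% and 99.2% of Myb TPM. The lack of overlap between Chd4 and Myb thus need not hold for protein-coding transcripts alone.

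Transcripts of the regulators were compared by the share of a gene's TPM that each holds in the deposited tables. Most Sox6 RNA was assigned to the middle-start transcript, at 72.8% in replicate 1 and 74.5% in replicate 2. The first-start transcript held 18.6% and 15.9%, and the last-start transcript held 8.45% and 9.55%. The libraries gave the same order. Because these transcripts also differ in their last exon, the shares do not measure how much each start was used. By share of counts, which is not corrected for length, the middle-start transcript (2825 bases) held 50.4% and 53.4% and the first-start transcript (8079 bases) 38.5% and 33.9%. The middle-start transcript codes for 827 codons and both others for 787.

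Hbs1l RNA was split between its long and short transcripts. The short Hbs1l-203, which holds the first 4 exons and its own last exon, held 50.9% and 33.6% in replicates 1 and 2. The long Hbs1l-201 held 49.1% and 66.4%. In counts these were 1063 and 412 for Hbs1l-203 and 1074 and 853 for Hbs1l-201. Only Hbs1l-201 holds the exons downstream of exon 5, and the coding lengths are 612 and 679 codons for Hbs1l-203 and Hbs1l-201. In human cells a short HBS1L product that ends in an alternative exon links the exosome to the Ski complex in RNA decay. Whether Hbs1l-203 is its mouse counterpart is not given in the annotation used here.

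Myb RNA was split in a similar way by its inserted exon. Myb-203, with the exon of 357 bases and 755 codons, held 34.4% and 41.5%, and Myb-201, with 636 codons, held 65.5% and 57.8%. Both libraries put Myb-201 first. A larger Myb protein from such an exon has been known in mouse and human blood cells.

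**Figure D3:**
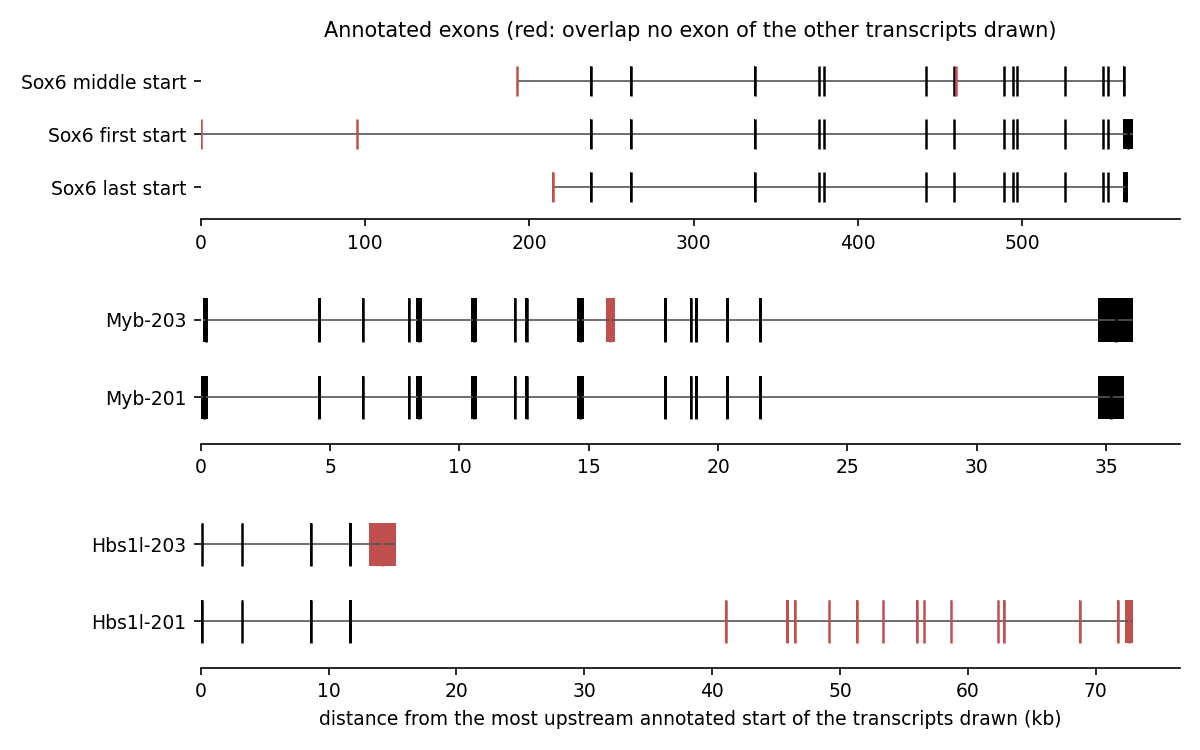
Annotated exons of the leading transcripts of Sox6, Myb and Hbs1l, drawn to scale as distance in kb from the most upstream start drawn, 5′ to the left, with red for exons that overlap no exon of the other transcripts drawn. The middle-start Sox6 transcript begins 193 kb from the first start and has its own exon of 123 bases, Myb-203 has an added exon of 357 bases, and Hbs1l-203 stops after its own exon 5.

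Bcl11a transcripts rest on 220 and 227 counts and did not keep their order between the libraries. Bcl11a-202, with the longest coding sequence (835 codons), held 13.3% and 20.3% of TPM and 27.2% and 42.9% of counts. The longest human product, BCL11A-XL, is the one known for silencing gamma globin. Bcl11a-204, a short transcript of 191 codons, held 57.3% and 23.6% of TPM. The short noncoding Bcl11a-206 held 0% and 36.8% on 0 and 12.5 counts, so its share in replicate 2 rests on few reads. A transcript with a retained intron, Bcl11a-205, held 38.8% and 40.1% of counts.

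Of the 9 regulators with more than 1 transcript, 4 had a leading transcript over 50% in both libraries, namely Sox6, Mbd2, Myb and Zbtb7a. The background was 48.4% of 3255 detected protein-coding genes with more than 1 transcript, so this count is near the background. The sets are not quite alike, since the 9 regulators include Gatad2a and Bcl11a, which were not detected. Zbtb7a-201 held 82.7% and 77.0%. The highest transcript differed between the libraries in 3 regulators, Hbs1l, Gatad2a and Bcl11a, against 32.2% of the 3255 background genes. In Gatad2a, the 3 transcripts have coding sequences of 614 to 630 codons. Gatad2a-203 held 60.9% and 22.0%, Gatad2a-202 2.78% and 31.2%, and Gatad2a-201 36.4% and 46.8%. The posterior standard deviation of Gatad2a-203 in replicate 1 was 71.9 counts on 526.

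Mbd2, Chd4 and Mta2 also had RNA assigned to transcripts with retained introns, which total RNA can hold. Their share of Mbd2 TPM was 0% in replicate 1 and 42.4% in replicate 2. The corresponding shares were 17.9% and 27.1% for Chd4, and 22.9% and 38.3% for Mta2. By counts, where short transcripts weigh less, they were 0% and 15.7% for Mbd2, 2.04% and 4.41% for Chd4, and 6.47% and 15.4% for Mta2. Of the 5 regulators with any such share, 4 were higher in replicate 2, against 56.4% of 1924 detected genes with such a share. The 5 include Bcl11a, which was not detected. The labels give the libraries different size ranges, 200 to 764 for replicate 1 and 138 to 1000 for replicate 2, and the part of this difference in these shares was not tested. For Sox6, Hbs1l, Zbtb7a and Gatad2a every annotated transcript is protein coding. Their TPM could fall on no other kind, so nothing about their splicing can be read from that share.

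**Figure D4:**
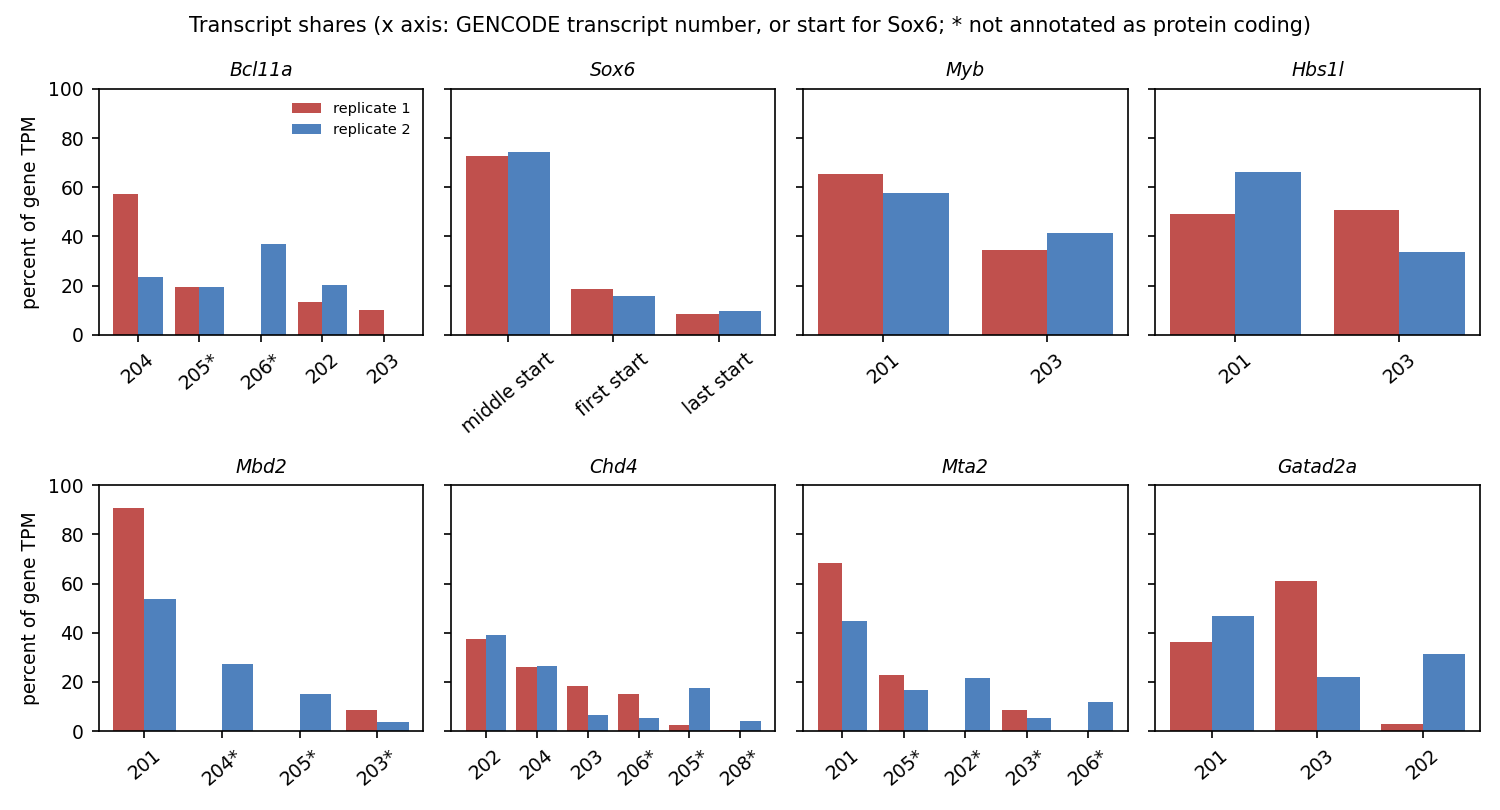
Share of gene TPM, in percent, of every transcript with a mean share above 1%, for 8 regulators, with red bars for replicate 1 and blue bars for replicate 2, and asterisks for transcripts not annotated as protein coding. The middle-start Sox6 transcript leads in both libraries at 72.8% and 74.5%, while the leading transcripts of Bcl11a, Hbs1l and Gatad2a change between them.

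Between the libraries, 0 of the 9 regulators with a mean count of at least 100 were 2-fold or more apart in scaled counts, against 8.54% of 7658 protein-coding genes. Of the 9, 0 were 2-fold higher in replicate 1, against 5.62% of those genes, and 0 in replicate 2, against 2.93%. The log2 ratio of replicate 1 over replicate 2 had a median of -0.20 over the 9, against 0.04 over those genes. The 95% counting interval excluded 0 for 7 of 9, against 69.4% of those genes, which is near the background. Each ratio compares 1 pair of libraries and has no replicate check. Bcl11a had the ratio farthest from 0, at -0.92 with an interval of -1.20 to -0.65, so 2-fold lies within it. Zbtb7a followed at -0.41 (-0.57 to -0.25). Sox6 was at -0.20 (-0.22 to -0.18), and Chd4 and Mbd2 at -0.24 and -0.26. Hbs1l was at -0.12 (-0.22 to -0.02), Gatad2a at -0.06 and Mta2 at 0.03. The signs of these 3 were not stable, since Hbs1l and Gatad2a turned positive with library size scaling and Mta2 negative by TPM.

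Myb was the only regulator whose interval lay above 0, with a log2 ratio of 0.39 (0.29 to 0.48). Of the 10 neutrophil precursor markers 7 had a ratio above 0, between -0.67 for S100a9 and 0.88 for Mpo, with a median of 0.18. The 4 stem and progenitor markers with enough counts all had ratios above 0, with a median of 0.66. Their part in the Myb ratio was not tested. Among context genes of these lists, Zbtb7b was the only one with enough counts that was 2-fold apart, at 1.43. By the ratio of coding-scaled TPM, Bcl11a reached -1.06 and Mbd2 -0.84. The Mbd2 value differs from its ratio by counts, -0.26, and short retained intron transcripts of Mbd2 are listed in replicate 2 only.

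**Figure D5:**
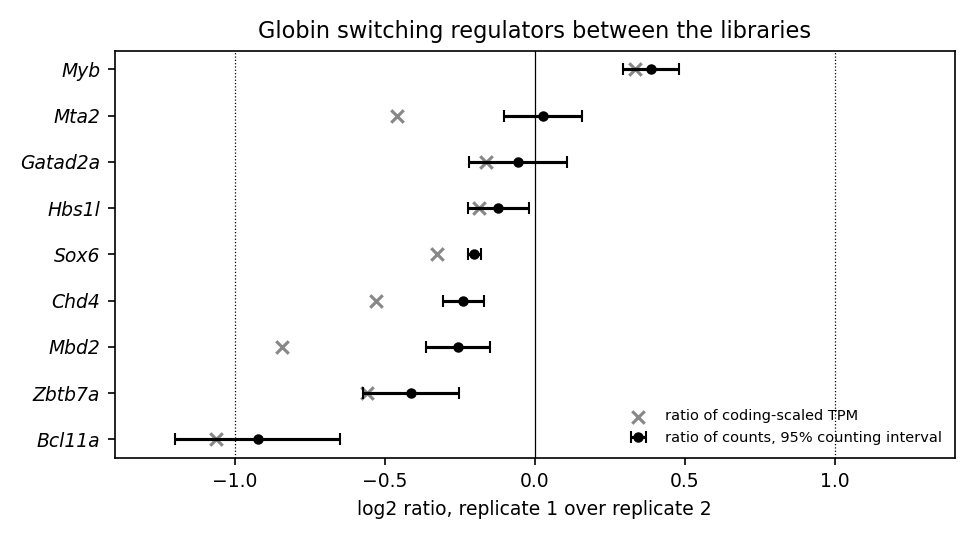
Log2 ratio of replicate 1 over replicate 2 for the 9 regulators with a mean count of at least 100, with points and 95% counting intervals for scaled counts and crosses for coding-scaled TPM, and dotted lines at a 2-fold difference. Every point lies inside the dotted lines, Myb is the only interval above 0, and the crosses of Mbd2, Mta2, Chd4 and Sox6 lie left of their intervals.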

How the data were processed

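Total RNA of erythroblasts was measured in 2 libraries of 1 group, with a gene and a transcript table each. Reads were assigned on mm10, per the labels, and to annotation M4, per the deposited text records. Which aligner and quantifier made them is not given in the sources used here. The authors deposited expected counts (estimates that need not be whole) with their posterior means and SDs, per the file headers. Also deposited were TPM, FPKM and, per transcript, its percent of gene TPM.

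Gene identifiers without version matched GENCODE M21, on the same assembly, for 98.0% of genes. Its exon models differ in length from M4 for some transcripts, such as those of Gatad2a. Rows that name no Ensembl gene (8 and 28 counts) were left out. For ratios, expected counts were rounded to whole numbers, then divided by TMM factors (edgeR 4.0.16, R 4.3.3); DESeq2 1.42.0 size factors were an alternative. Ratios have exact Clopper-Pearson 95% intervals, which cover counting error only, as do limits of 3 counts, since reads are not independent molecules. Python 3.11.15, scipy 1.17.1, numpy 2.4.6, matplotlib 3.10.9 and pandas 2.3.3 were used. Promoter windows are RefSeq's on GRCm38.p6, and 16 windows of 9 regulators were searched. Named genes are the 10 regulators, their paralogues, the highest and lowest gene of each list of related genes, others of those lists and some cell type markers. The regulators and lists were chosen with earlier results of these data known.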

Additional observations from a re-analysis of the deposited data

How the results depend on the processing

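Leaving the adult globins out of the rescaling raised every level above 0 by construction, while Lin28b stayed at 0. The median over the 10 regulators was then 80.8 coding-scaled TPM, and the list medians were 48.0 for NuRD subunits, 37.4 for other corepressors, 74.0 for upstream genes, 7.33 for the LIN28 axis, 15.1 for paralogues and 41.8 for ribosome rescue. Posterior mean TPM and rescaled FPKM gave 51.8 and 51.9 against 51.9. The number detected ranged from 6 at a TPM of 2 to 9 at 0.5, and from 7 to 8 with 1 library left out. At 1 coding-scaled TPM the lists had 10 of 11 NuRD subunits, 12 of 12 other corepressors and 9 of 10 upstream genes detected. They also had 7 of 11 LIN28 axis genes, 12 of 18 paralogues and 7 of 7 rescue partners. The background by that limit was 43.9% of nuclear protein-coding genes. By the ratio of coding-scaled TPM 1 of 9 regulators, Bcl11a, was 2-fold apart, against 12.6% of protein-coding genes. By DESeq2 scaling 0 were, against 8.49%, and by library size 0, against 10.1%. With library size alone the log2 ratio of Hbs1l was 0.03 against -0.12 and that of Gatad2a 0.09 against -0.06, and by TPM that of Mta2 was -0.46 against 0.03. The share of protein-coding genes 2-fold apart was 21.9% at a mean count of at least 10 and 32.4% without that filter. By share of counts, which is not corrected for length, 7 regulators had a leading transcript over 50%, against 4 by TPM (the cause was not tested). With 1 library left out the number by TPM ranged from 5 without replicate 1 to 8 without replicate 2. No background share was computed for these settings. The mean protein-coding share over 9 regulators was 85.4%, 92.2% by counts, and 79.4% to 91.4% with 1 library left out. This mean includes Sox6, Hbs1l, Zbtb7a and Gatad2a, whose share was fixed by the annotation. In all, 31 of 41 comparisons of summary values stayed within their limits. For levels and the protein-coding share the limit was the SD of the 2 libraries. Leaving 1 library out can never exceed that SD, and leaving out the adult globins shifts levels by construction. Many of the comparisons were thus fixed in advance, and their tally does not measure robustness. No paired analysis was possible because there is 1 group. Bcl11a, at 220 and 227 counts, is limited by depth, most of all in its transcripts.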
